A study of Mus musculus with 24 samples.

Results

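The 10 genes described here encode proteins that coat, build or fuse lipid droplets, and they were taken by symbol from the count table of brown adipose tissue (BAT) RNA. They are the CIDE genes Cidea and Cidec, the perilipin genes Plin1, Plin2, Plin3, Plin4 and Plin5, the droplet budding and assembly genes Fitm2 and Bscl2, and Hilpda. All 10 were among the 12615 genes of the table, and all 10 were among the 12485 genes that passed the filter on low counts. BAT of 24 mice was measured with a 3′ tag kit, which reads a single tag per transcript close to its 3′ end, so longer transcripts give no more counts than shorter ones. The mice formed 4 groups of 6. BATdKO mice carried Ucp1CreERT2, a tamoxifen-inducible recombinase under the promoter of Ucp1 (the uncoupling protein of brown fat), and Cre- mice lacked it. Both genotypes were homozygous for floxed TBLR1 and TBL1, both received tamoxifen, and both were on a C57BL6/N background, so the groups differed in the recombinase and not in the floxed alleles or the drug. By the labels the mice were females raised at 22°C and studied from 3 weeks after the last tamoxifen dose, either after 4 days at 30°C or after 6 days at 8°C that followed 1 day each at 18, 16 and 12°C. The labels and the text of the study do not give the same sex, number of mice or days at 8°C, and the age at tamoxifen that the labels give is not possible for a mouse, so an age is not stated here.

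A lipid droplet is a core of triglyceride and sterol ester under a single layer of phospholipid, and the proteins on that layer set how fast lipases reach the core. In brown adipocytes many small droplets lie against mitochondria, and cold releases their fatty acids as fuel for heat. CIDE proteins gather where droplets touch and pass lipid from the smaller to the larger, perilipins coat the surface and hold or release the lipase cofactor Abhd5, and Fitm2 and seipin act in the endoplasmic reticulum where droplets bud.

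For each member past the threshold in a comparison of all mice, 1 promoter window is printed, that with a match to a searched motif or otherwise the first, because a peroxisome proliferator-activated receptor (PPAR) and the hypoxia-inducible factor (HIF) are well known regulators of members of this family. The sequences are the 250 bases before an annotated start in RefSeq (GRCm38.p6), 5′ to 3′ on the strand of the gene, and capitals mark a match to AGGTCA, the hexamer bound by nuclear receptors, or to ACGTG, the core of the hypoxia response element, on either strand. Cidec is at chr6:113435761-113436010 (minus strand), Plin2 at chr4:86670060-86670309 (minus), Plin4 at chr17:56109783-56110032 (minus), Plin5 at chr17:56117549-56117798 (minus), the second annotated start of Bscl2 at chr19:8839078-8839327 (plus), and the second annotated start of Hilpda at chr6:29272376-29272625 (plus).
Cidec: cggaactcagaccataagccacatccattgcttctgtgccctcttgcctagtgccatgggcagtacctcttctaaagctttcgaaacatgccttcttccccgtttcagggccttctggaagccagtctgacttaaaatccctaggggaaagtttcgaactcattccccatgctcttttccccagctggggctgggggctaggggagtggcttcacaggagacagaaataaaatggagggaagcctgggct
Plin2: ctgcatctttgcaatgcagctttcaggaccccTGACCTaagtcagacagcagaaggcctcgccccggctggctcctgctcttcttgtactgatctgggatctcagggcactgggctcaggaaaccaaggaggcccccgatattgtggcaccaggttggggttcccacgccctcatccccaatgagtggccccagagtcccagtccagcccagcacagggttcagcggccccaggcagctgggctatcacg
Plin4: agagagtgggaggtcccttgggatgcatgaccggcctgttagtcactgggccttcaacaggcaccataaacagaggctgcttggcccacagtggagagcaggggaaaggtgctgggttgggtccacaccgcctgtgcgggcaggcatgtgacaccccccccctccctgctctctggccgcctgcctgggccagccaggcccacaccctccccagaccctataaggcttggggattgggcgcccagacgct
Plin5: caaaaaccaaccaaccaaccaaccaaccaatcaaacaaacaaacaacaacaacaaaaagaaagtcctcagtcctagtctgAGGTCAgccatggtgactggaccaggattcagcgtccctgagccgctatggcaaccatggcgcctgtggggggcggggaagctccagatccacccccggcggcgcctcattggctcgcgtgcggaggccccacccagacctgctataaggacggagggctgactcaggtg
Hilpda: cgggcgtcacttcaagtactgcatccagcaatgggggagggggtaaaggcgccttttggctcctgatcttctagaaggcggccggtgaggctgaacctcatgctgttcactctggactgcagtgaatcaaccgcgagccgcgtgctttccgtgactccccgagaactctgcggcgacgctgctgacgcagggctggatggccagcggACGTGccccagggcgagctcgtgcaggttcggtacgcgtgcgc
Bscl2: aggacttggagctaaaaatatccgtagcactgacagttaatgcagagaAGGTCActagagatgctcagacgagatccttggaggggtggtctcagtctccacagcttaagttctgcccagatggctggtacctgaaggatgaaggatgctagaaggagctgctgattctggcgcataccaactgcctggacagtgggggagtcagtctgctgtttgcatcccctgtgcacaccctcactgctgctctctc
In Plin2 the match is to the reverse strand. Of the 10 members, 9 were matched to this table, with 14 windows in all, and Cidea was not among them. AGGTCA was found in 3 of the 14 windows, in Plin2 at 218 to 213 bases before the start, in Plin5 at 170 to 165 and in the second window of Bscl2 at 202 to 197, against 14.0% of 32851 windows of the same length over all genes. The classic PPAR element, a pair of AGGTCA hexamers in tandem with any single base between them, was in 0 of 14 windows and in 0.0335% of all windows. ACGTG was in 1 of 14 windows, that of Hilpda at 43 to 39 bases before the start, and in 16.6% of all windows, and the overlapping motif CACGTG was in 0 of 14 and in 6.02%. The windows of Cidec (2) and Plin4 (1) held none of these letters, which says only that they are not in these 250 bases.

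Depth ranged from 699703 counts in the library of mouse m4 labelled Cre- at 30°C to 11527643, with 2738613 as the next lowest, and the 10 members together took 0.108 to 0.222% of a library. Levels are given as CPM, counts scaled to a common library size after TMM normalisation (a method that sets library sizes by the genes that differ least). Brown adipocyte markers were present (9 of 10 in the table, Zic1 not among them), with a summed level of 523 to 5279 CPM per library. All 8 hepatocyte markers were present as well, at 27510 to 40320 CPM or 2.63 to 4.17% of the counts, 5.95 to 67.2 times the brown adipocyte sum of the same library. The hepatocyte sum had group medians of 34000 (Cre- at 30°C), 32920 (BATdKO at 30°C), 33510 (Cre- at 8°C) and 35070 CPM (BATdKO at 8°C). Hepatocytes also express several members, Plin2 among them, and from which cells the counts of a member came cannot be told apart. In bulk RNA, fewer cells of a type and less RNA per cell cannot be told apart either. Skeletal muscle markers (9 of 10 in the table) had medians of 218 and 187.0 CPM in Cre- and BATdKO mice at 30°C and of 441 and 48.9 CPM at 8°C, with 3.26 to 1330 CPM in Cre- and 0.978 to 138 CPM in BATdKO mice at 8°C and up to 8091 CPM in mouse m3 labelled Cre- at 30°C. The part of the muscle sum in the genotype results at 8°C was not tested, and 0 of 5 B and T cell markers were in the table. White adipocyte (4 of 7), macrophage (8 of 10), endothelial (8 of 8), progenitor (7 of 7) and red cell markers (4 of 5) summed to group medians of 178.0 to 185.5, 200.2 to 255.0, 191.4 to 239.9, 134.5 to 165.8 and 3520 to 5305 CPM. The white adipocyte sum was mostly Agt, with group medians of 159 to 173 CPM. Median Lep was 2.85 and 3.04 CPM at 30°C and 0.164 and 0.457 CPM at 8°C in Cre- and BATdKO mice. Median Retn was 6.75 and 9.45 CPM at 30°C and 13.9 and 4.26 CPM at 8°C, so the sum does not show how these markers differed. The names of the libraries run in separate series for 30°C and 8°C. What these series stand for is not stated, and a difference between them could not be told apart from temperature.

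**Figure D1:**
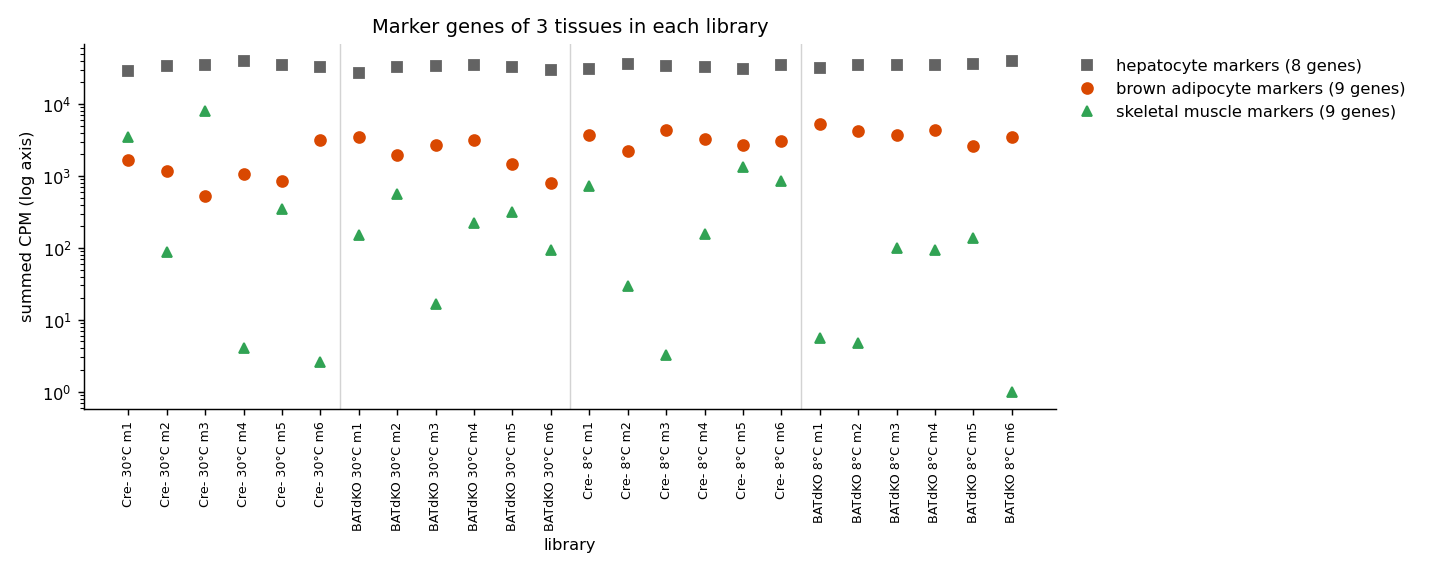
Summed CPM of marker genes (vertical log axis) in each of the 24 libraries (horizontal axis), for hepatocytes (grey squares), brown adipocytes (orange circles) and skeletal muscle (green triangles), with lines between the 4 groups. Hepatocyte markers lie between 27510 and 40320 CPM in every library, whereas brown adipocyte markers range from 523 to 5279 CPM.

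Both targeted genes had more counts under the BATdKO label, Tbl1xr1 (TBLR1) with 39.9 ± 4.01 against 20.9 ± 2.24 CPM at 8°C (SD, n = 6 each). A 3′ tag can lie outside the floxed part, whose exons are not given in the sources used here, so these counts do not check the deletion, and groups are named by their labels. At 30°C the pattern of Tbl1xr1 was crossed in 1 mouse of each label. Mouse m6 labelled Cre- had 38.6 CPM, while the other Cre- mice had 16.45 to 24.6, and mouse m6 labelled BATdKO had 17.0 CPM, while the other BATdKO mice had 29.8 to 42.0. The brown adipocyte sum of these mice went the same way, with 3212 CPM in Cre- m6 and 796 CPM in BATdKO m6. Tests of the members that use the mice at 30°C are therefore given with all mice and without both mice m6, a choice made after the data were seen and from Tbl1xr1 rather than from the members. Both mice were also the end values of their groups for Cidea, Cidec and Plin1. Leaving them out thus narrows the spread and the overlap of these members, and results without them are not independent of the members' values.

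At 8°C the difference between genotypes among the members lay in Cidec, which was 2.025-fold higher in BATdKO, and in Plin4, which was 1.83-fold lower. These were 2 of 10 members past an adjusted p of 0.1, 1 higher and 1 lower, where 1.82% of all 12485 genes passed, 0.697% higher and 1.12% lower (edgeR's quasi-likelihood test with Benjamini-Hochberg adjustment over all genes, used for every adjusted p below). The median log2 fold change of the 10 was 0.01, beside -0.0001 for all genes. For Plin2 the log2 fold change, 0.30 with a standard error of 0.096, did not pass (adjusted p = 0.163), and the remaining 7 lay between -0.38 (Cidea) and 0.24 (Hilpda). The call count depended on how the spread was estimated, with 0 members past the threshold under robust estimates (1.62% of all genes) and 4 in a fit of the mice at 8°C alone (4.01%). The brown adipocyte sum at 8°C had medians of 3179 CPM in Cre- and 3986 CPM in BATdKO mice. Among its markers, median Fabp4 was 1050 and 1660 CPM. Adipoq (149 and 109 CPM), Prdm16, Ebf2 and Cox7a1 had lower medians in BATdKO mice, and the other markers higher ones. The part of the sum in these results was not tested.

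In Cre- mice cold went with more Plin5, Bscl2 and Plin2 and with less Hilpda. These were 4 of 10 members past the threshold, where 9.15% of all genes passed (5.57% higher and 3.59% lower), and the members' median log2 fold change was 0.28 beside -0.02 for all genes. In BATdKO mice the same 4 members passed in the same directions, and Plin4 was lower in the cold as well, which made 5 of 10 where 7.07% of all genes passed, 3.76% higher and 3.31% lower (median 0.13 for the members and -0.0026 for all genes). Without both mice m6 at 30°C, 7 of 10 members passed in Cre- mice (13.2% of all genes), with Cidea, Cidec and Plin1 added on the higher side. In BATdKO mice 7 of 10 then passed as well (6.13%), with Cidec added on the higher and Cidea on the lower side. The brown adipocyte sum also differed between the temperatures, with medians of 1111 CPM at 30°C and 3179 CPM at 8°C in Cre- mice. In BATdKO mice the medians were 2321 and 3986 CPM. The markers in the sum did not all go the same way. Median Ucp1 was 130 CPM at 30°C and 1520 CPM at 8°C in Cre- mice, and 314 and 1770 CPM in BATdKO mice. Median Adipoq was 220 and 149 CPM in Cre- mice and 192 and 109 CPM in BATdKO mice. Ebf2 was also lower at 8°C in both genotypes, and the other markers were higher. The part of the sum in these results was not tested. Scaling by library totals alone moved the median of all genes from -0.02 to -0.198 in Cre- and from -0.003 to -0.191 in BATdKO mice. Of the 57 calls in the members and the lists described further on, over the comparisons, 0 changed sign under that scaling, while the members' median for cold in BATdKO mice became -0.06 and that of other droplet genes -0.14 in Cre- and -0.18 in BATdKO mice.

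At 30°C 0 of 10 members differed between genotypes past the threshold, where 0.0% of all genes passed. At an unadjusted p under 0.05 there were 4 members (Cidea, Cidec, Plin2 and Bscl2) and 10.4% of all genes, and DESeq2 called 0 members and 90 genes. Without both mice m6, Cidea, Cidec, Plin1 and Plin2 were higher in BATdKO, 4 of 10 where 4.0% of all genes passed. Leaving out mouse m6 labelled Cre- alone gave 3 members and 2.95% of all genes. The brown adipocyte sum at 30°C also had a lower median in Cre- (1111 CPM) than in BATdKO mice (2321 CPM). Without both mice m6 it ran from 523 to 1651 CPM in Cre- and from 1449 to 3443 CPM in BATdKO mice. Among its markers, median Fabp4 with all mice was 571 CPM in Cre- and 1510 CPM in BATdKO mice. Adipoq (220 against 192 CPM), Elovl3 (121 against 115) and Ebf2 (5.01 against 4.28) had lower medians in BATdKO mice, and the other markers higher ones. The part of the sum in these genotype results was not tested. For the interaction, the test of whether the genotype difference changed with temperature, 0 of 10 members passed (0.0961% of all genes), 3 had an unadjusted p under 0.05 (Cidea, Plin4 and Bscl2) where 8.05% of all genes had, and DESeq2 also called 0. Without both mice m6 1 of 10 passed, Cidea, where 0.352% of all genes did. The Cre- mice at 8°C enter both the genotype comparison at 8°C and the cold comparison in Cre- mice, so these comparisons are not independent of each other.

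**Figure D2:**
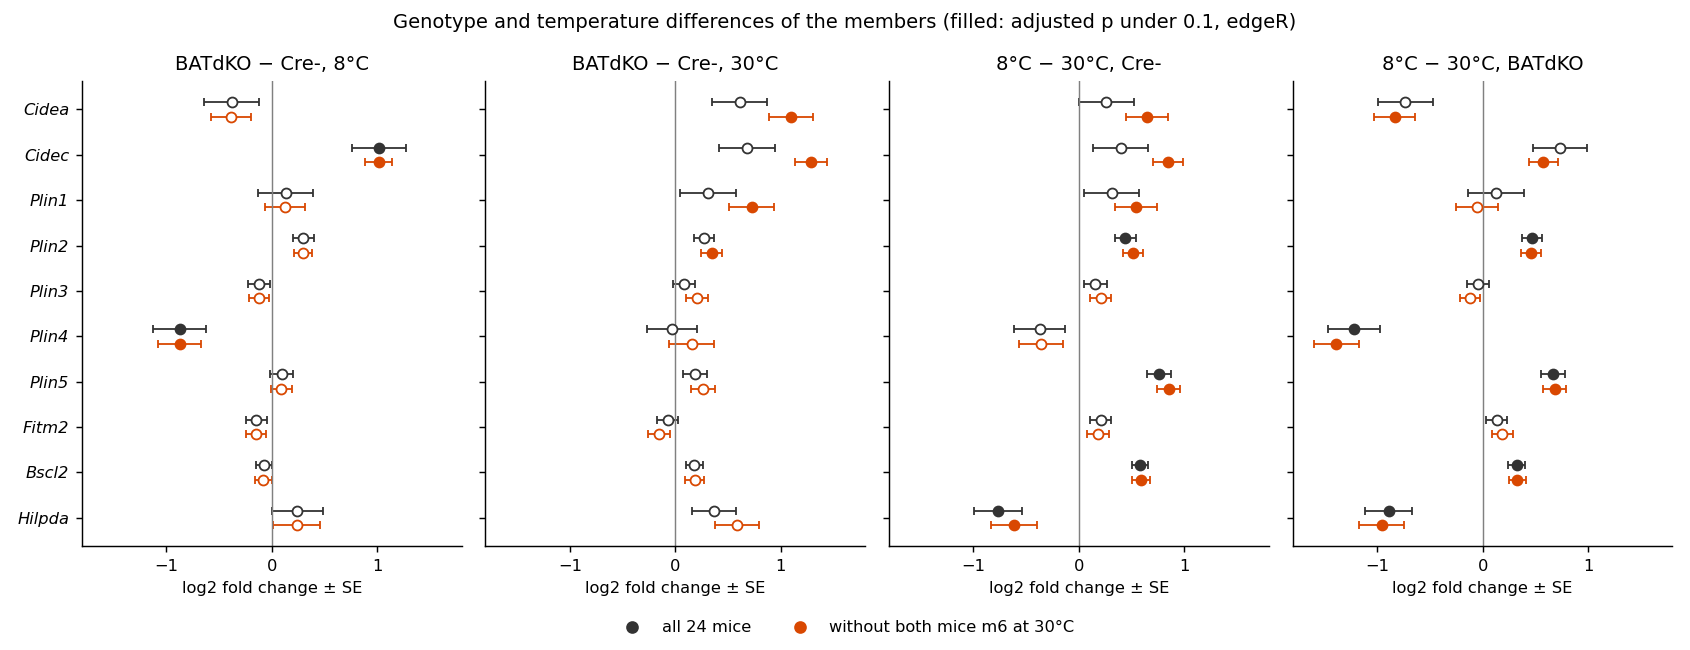
Log2 fold change with its standard error (horizontal axis) of the 10 members (vertical axis) for genotype at 8°C and at 30°C and for cold in Cre- and in BATdKO mice, in all 24 mice (black) and without both mice m6 at 30°C (orange). Filled points passed an adjusted p of 0.1 in edgeR's test; Cidec and Plin4 differ in opposite directions at 8°C (1.02 and -0.87), and the genotype differences of Cidea and Cidec at 30°C grow from 0.61 and 0.68 to 1.09 and 1.29 without the mice m6.

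Cidec encodes the CIDE protein of large droplets, also called FSP27, and lies at chr6:113424634-113435760 of GRCm38 (minus strand). In BATdKO mice at 8°C its level ran from 128 to 215 CPM with a median of 149, and in Cre- mice at 8°C from 60.0 to 89.1 with a median of 79.1. All 6 BATdKO mice lay above all 6 Cre- mice, as was the case for 1.07% of all genes. The log2 fold change was 1.02 with a standard error of 0.258 (adjusted p = 0.049). The call was lost under robust estimates (adjusted p = 0.124) and without Cre- m2, Cre- m6 or BATdKO m1 at 8°C (0.101, 0.101 and 0.118), while the log2 fold change stayed between 0.92 and 1.07 in the 24 fits that each left out a mouse. Without both mice m6 at 30°C, which enter only the estimate of the spread here, it was 1.01 (standard error 0.131, adjusted p = 1.86e-05). In a fit of the mice at 8°C alone it was also 1.01 (standard error 0.106, adjusted p = 4.51e-06). Cidec is among the genes that the study picked from these libraries, so its call is not independent evidence.

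At 30°C Cidec ran from 28.7 to 133 CPM in Cre- mice (median 42.0) and from 41.8 to 121 CPM in BATdKO mice (median 99.1). The ranges overlapped through the mice m6, of which the one labelled Cre- was the highest of all at 133 CPM and the one labelled BATdKO the lowest of its group at 41.8 CPM. With all mice the log2 fold change was 0.68 with a standard error of 0.261 (adjusted p = 0.351). Without both it was 1.29 (standard error 0.149, adjusted p = 7.7e-06), with 28.7 to 59.4 CPM in 5 Cre- mice and 86.7 to 121 CPM in 5 BATdKO mice, which did not overlap (2.02% of all genes lay higher without overlap). Cold differences of Cidec were 0.40 in Cre- mice (standard error 0.261, adjusted p = 0.45) and 0.73 in BATdKO mice (standard error 0.256, adjusted p = 0.107). They were 0.85 without both mice m6 (adjusted p = 0.000252) and 0.57 (adjusted p = 0.0127), and without Cre- m6 alone the former was 0.86 (adjusted p = 0.00613). All BATdKO mice at 8°C lay above all BATdKO mice at 30°C, which held for 1.75% of all genes on the higher side.

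Cidea, the CIDE gene that marks brown and beige adipocytes, lies on chromosome 18 and had the second highest level of the members. Mice at 30°C held 144 to 882 CPM under the Cre- label (median 361) and 411 to 794 under the BATdKO label (median 637), beside 388 to 544 in Cre- mice (median 499.5) against 282.5 to 486 in BATdKO mice (median 350.3) at 8°C. The groups overlapped in all comparisons with all mice. Genotype gave log2 fold changes of 0.61 at 30°C (standard error 0.262, adjusted p = 0.396) and -0.38 at 8°C (standard error 0.262, adjusted p = 0.746), values of opposite sign that did not pass the threshold. With all mice the cold differences were 0.26 in Cre- mice (standard error 0.261, adjusted p = 0.67) and -0.73 in BATdKO mice (standard error 0.262, adjusted p = 0.119). The interaction was -0.99 (standard error 0.37, adjusted p = 0.495). Without both mice m6 at 30°C the interaction was -1.48 (standard error 0.28, adjusted p = 0.0211), with 144 to 457 CPM in Cre- and 500.4 to 794 CPM in BATdKO mice at 30°C. Cidea was then higher in BATdKO at 30°C (log2 fold change 1.09, adjusted p = 0.00394), higher with cold in Cre- mice (0.64, adjusted p = 0.0413) and lower with cold in BATdKO mice (-0.83, adjusted p = 0.0116). The lowest Cidea value, 144 CPM, was in the library of Cre- mouse m3 at 30°C, which also had the lowest brown adipocyte sum (523 CPM) and the highest skeletal muscle sum.

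The balance of both CIDE genes was a different one in BATdKO mice at 8°C. Per 100 counts of Cidea there were 15.9 ± 0.451 counts of Cidec (SD, n = 6) in Cre- mice at 8°C, from 15.5 to 16.4, and 42.7 ± 6.24 in BATdKO mice at 8°C, from 34.7 to 52.7. At 30°C the ratio was 14.7 ± 4.44 in Cre- and 15.3 ± 4.6 in BATdKO mice, with ranges of 11.1 to 23.4 and 10.15 to 23.3. All BATdKO mice at 8°C thus lay above the mice of the other groups. A ratio within a library shows unequal change and not which gene changed, and as it was formed after the values were seen it was given no test. Because it does not use the library size, it does not depend on the scaling of the libraries, and the mice m6 at 30°C, with 15.05 for Cre- and 10.15 for BATdKO, do not set it.

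**Figure D3:**
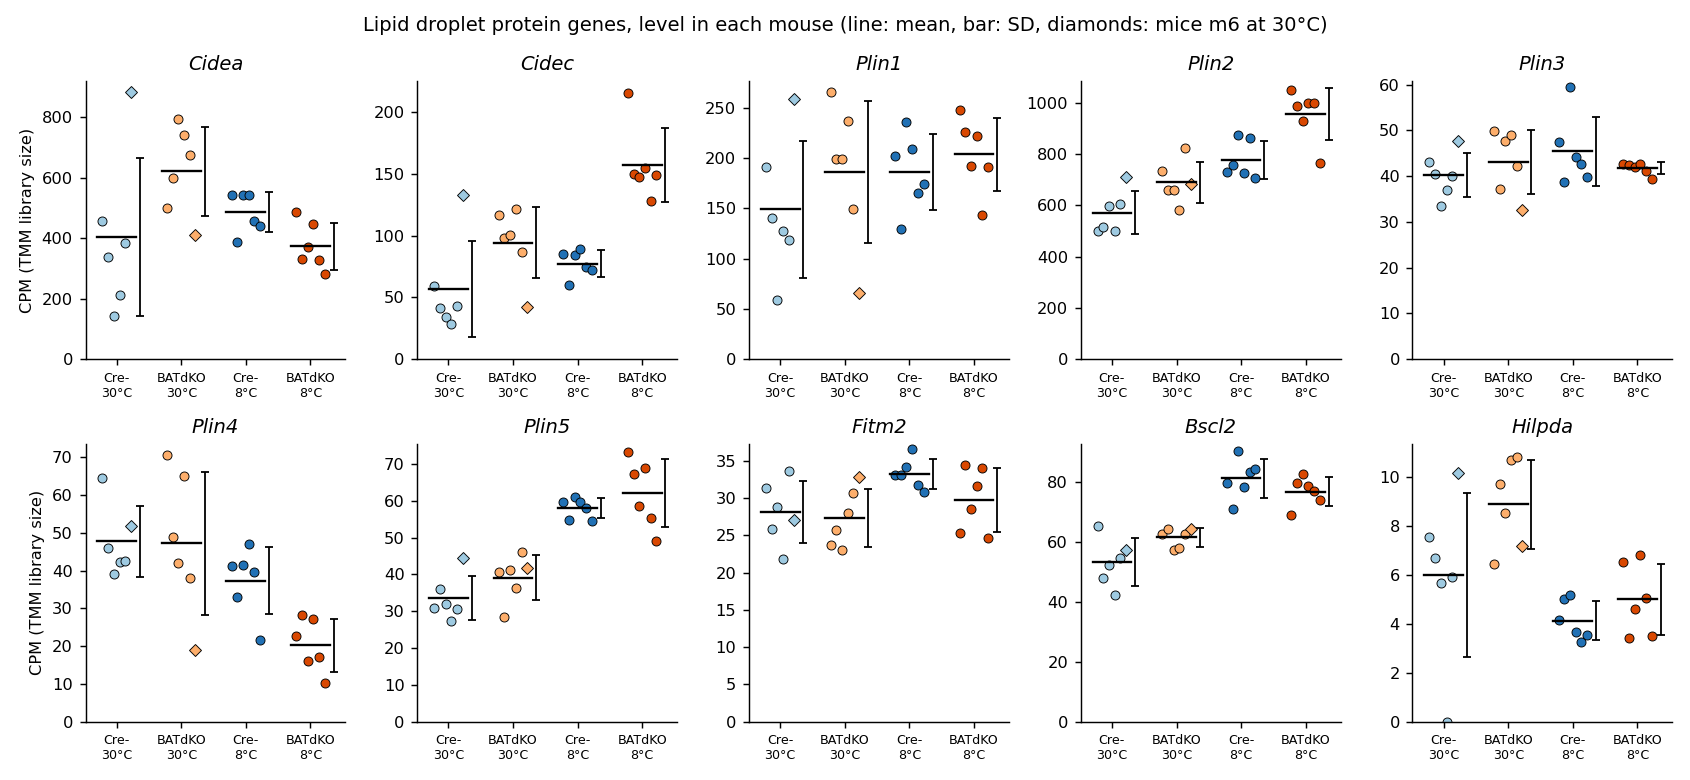
CPM (vertical axes, each starting at 0) of the 10 members in each mouse of the 4 groups (horizontal axes), with the mean as a line, the SD as a bar beside it and both mice m6 at 30°C as diamonds. Cidec lies at 128 to 215 CPM in BATdKO mice at 8°C, above all Cre- mice at 8°C, whereas Plin4 is lowest in that group (10.4 to 28.2 CPM), and the diamonds of Cidea, Cidec and Plin1 sit at the far end of their groups.

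Plin1 encodes the perilipin of fat cells, which keeps Abhd5 from the lipase until protein kinase A phosphorylates it. It ran from 58.25 to 258 CPM in Cre- and from 65.9 to 266 CPM in BATdKO mice at 30°C (medians 134 and 199), and from 129 to 236 and 144 to 247.5 CPM at 8°C (medians 188 and 207). The groups overlapped in every comparison, and with all mice its log2 fold changes lay between 0.13 and 0.31 for genotype and cold, with adjusted p of 0.594 to 0.957. Mouse m6 was the highest Cre- mouse (258 CPM) and the lowest BATdKO mouse (65.9 CPM) at 30°C. Without both, Plin1 was higher in BATdKO at 30°C (log2 fold change 0.72 with a standard error of 0.21, adjusted p = 0.0644) and higher with cold in Cre- mice (0.54, standard error 0.202, adjusted p = 0.0976).

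Plin2, the perilipin found on droplets of most cell types including hepatocytes, had the highest level of the 10 and made up on average 68.2 to 74.5% of all perilipin counts in the groups. It lies at chr4:86648386-86670060 (minus strand). Its level ran from 499 to 712 CPM (median 555) in Cre- mice at 30°C and from 708 to 875 at 8°C (median 743.5), which overlapped only through mouse m6 at 712 CPM. In BATdKO mice it ran from 581 to 822 CPM at 30°C (median 672) and from 767 to 1051 at 8°C (median 994.5). The cold difference was 0.44 in Cre- mice (standard error 0.0966, adjusted p = 0.00457) and 0.47 in BATdKO mice (standard error 0.0964, adjusted p = 0.0033). These passed the threshold in all alternatives tried, with 0.51 and 0.46 without both mice m6. Their size depended on the setting, with lowest values of 0.275 in Cre- and 0.274 in BATdKO mice and adjusted p of up to 0.0587 and 0.061. For genotype at 8°C the value of 0.30 passed in a fit of the mice at 8°C alone (adjusted p = 0.0492), with DESeq2 (0.0995) and without BATdKO m6 at 8°C (0.0866). Plin3, the ubiquitous perilipin that moves from the cytosol to new droplets, had group means of 40.3 to 45.4 CPM and log2 fold changes for genotype and cold between -0.12 and 0.16 (-0.12 and 0.21 without both mice m6), none past the threshold.

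Plin4, which coats small new droplets and is abundant in white fat, was lowest in BATdKO mice at 8°C. It lies at chr17:56100591-56109803 (minus strand), next to Plin5, and its exons overlap Hdgfl2 on the other strand, so that without a stated strand setting reads of both cannot be told apart. The level was 10.4 to 28.2 CPM in BATdKO mice at 8°C (median 19.9) and 21.8 to 47.1 in Cre- mice at 8°C (median 40.4). Cre- mouse m6 at 21.8 CPM was the mouse that brought the groups to overlap; the other 5 lay at 32.9 CPM or above. The log2 fold change was -0.87 with a standard error of 0.248 (adjusted p = 0.0914), a call close to the threshold that was lost under robust estimates (adjusted p = 0.184) and in 13 of the 24 fits without a mouse (up to 0.228). In these fits the value stayed between -1.01 and -0.74. The call held in a fit of the mice at 8°C alone (adjusted p = 0.0133), with DESeq2 (0.0646) and without both mice m6 at 30°C (0.0228). At 30°C the means were 47.7 ± 9.32 CPM in Cre- and 47.2 ± 18.9 CPM in BATdKO mice (SD, n = 6 each), with a log2 fold change of -0.03 (standard error 0.236). Cold gave -1.22 in BATdKO mice (standard error 0.247, adjusted p = 0.00303) and of -0.37 in Cre- mice (standard error 0.238, adjusted p = 0.433). Leaving out both mice m6 gave -1.39 (adjusted p = 0.000154) and -0.36 (adjusted p = 0.322). The difference between them, the interaction, was -0.84 (standard error 0.342, unadjusted p = 0.0205, adjusted p = 0.525), and without both mice m6 it was -1.03 (unadjusted p = 0.00192, adjusted p = 0.197), so it is not shown that cold acted differently on Plin4 in the genotypes.

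Plin5, the perilipin of oxidative tissues that brings droplets and mitochondria together, lies at chr17:56111601-56117596 (minus strand). It ran from 27.3 to 44.6 CPM (median 31.45) in Cre- mice at 30°C and from 54.5 to 61.0 at 8°C (median 58.9). In BATdKO mice it ran from 28.4 to 46.1 CPM at 30°C (median 41.0) and from 49.1 to 73.2 at 8°C (median 62.9). In both genotypes every mouse at 8°C lay above every mouse at 30°C, as held for 2.19% of all genes in Cre- and 1.75% in BATdKO mice. The cold difference was 0.76 in Cre- mice (1.69-fold, standard error 0.113, adjusted p = 5.53e-05) and 0.67 in BATdKO mice (1.59-fold, standard error 0.111, adjusted p = 0.000373), and it passed in every alternative tried. It was 0.85 and 0.68 without both mice m6. Genotype made a difference of 0.09 at 8°C, with 2 standard errors reaching from -0.12 to 0.31, and the interaction was -0.09 (from -0.40 to 0.23).

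The perilipins thus took different shares of their summed counts in the 4 groups. Plin4 made up 5.73 ± 1.11% in Cre- and 4.63 ± 1.66% in BATdKO mice at 30°C, and 3.37 ± 0.717% and 1.55 ± 0.426% at 8°C (SD, n = 6 each). Plin5 made up 4.00 ± 0.381% and 3.92 ± 0.69% at 30°C, and 5.28 ± 0.309% and 4.82 ± 0.272% at 8°C. Per 100 counts of Plin4 there were 48.0 to 86.1 counts of its neighbour Plin5 in Cre- mice at 30°C, 127 to 251 in Cre- mice at 8°C, 56.1 to 220 in BATdKO mice at 30°C and 238 to 474 in BATdKO mice at 8°C. The highest BATdKO value at 30°C, 220, was that of mouse m6, and the next was 121. The summed perilipin level was 841 ± 140 and 1005 ± 111 CPM at 30°C and 1103 ± 103 and 1284 ± 133 CPM at 8°C for Cre- and BATdKO mice. These shares are a description, with no test.

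**Figure D4:**
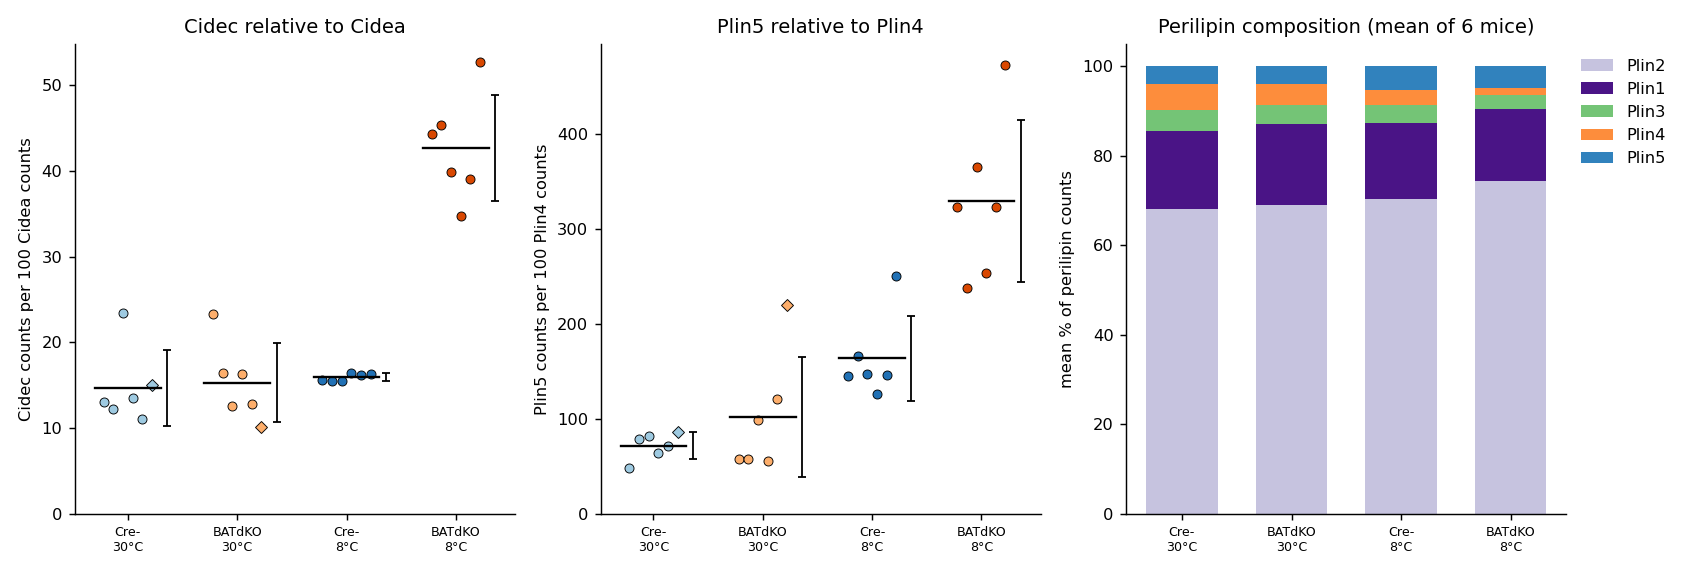
Counts of Cidec per 100 counts of Cidea (left) and of Plin5 per 100 counts of Plin4 (middle) in each mouse, with mean (line), SD (bar) and both mice m6 at 30°C as diamonds, and the mean share of each perilipin in all perilipin counts (right, percent) for the 4 groups of 6 mice. The Cidec to Cidea ratio is 34.7 to 52.7 in BATdKO mice at 8°C and at most 23.4 elsewhere, and the Plin4 share is smallest, 1.55%, in the same group.

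Bscl2 encodes seipin, the ring-shaped protein of the endoplasmic reticulum at which droplets grow, and lies at chr19:8837467-8848683 (plus strand). Its exons overlap Gng3 on the other strand and AC129217.1 on its own strand, neither of which was in the table. Its level ran from 42.4 to 65.25 CPM at 30°C and from 71.1 to 90.35 at 8°C in Cre- mice (medians 53.4 and 81.5), and from 57.3 to 64.4 and 68.8 to 82.5 in BATdKO mice (medians 62.5 and 77.9). As for Plin5, the temperatures did not overlap in either genotype. The cold difference was 0.58 in Cre- mice (standard error 0.0787, adjusted p = 1.74e-05) and 0.32 in BATdKO mice (standard error 0.0779, adjusted p = 0.0138). The values were 0.59 (adjusted p = 2.16e-05) and 0.33 (adjusted p = 0.017) without both mice m6. The value in BATdKO mice lost its call when libraries were scaled by their totals alone (0.13, adjusted p = 0.342). The interaction was -0.26 (standard error 0.111, unadjusted p = 0.0281, adjusted p = 0.551), also -0.26 without both mice m6 (adjusted p = 0.449). Fitm2, a protein of the endoplasmic reticulum that droplets need to bud, had group means of 27.35 to 33.25 CPM, log2 fold changes between -0.15 and 0.21 and 0 calls with or without the mice m6, with the nearest to the threshold that for cold in Cre- mice (0.21, standard error 0.101, adjusted p = 0.271). Its exons overlap the antisense gene 2310001K24Rik, which was not in the table.

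Hilpda, a small inhibitor of the lipase Pnpla2 and a known target of HIF, had the lowest level of the 10 and rested on 0 to 126 counts per library. It lies at chr6:29272488-29275446 (plus strand). It ran from 0 to 10.2 CPM (median 6.31) in Cre- mice at 30°C and from 3.25 to 5.18 at 8°C (median 3.93). In BATdKO mice it ran from 6.45 to 10.8 CPM at 30°C (median 9.135) and from 3.44 to 6.82 at 8°C (median 4.86). The 0 was in the library of 699703 counts, where 3 counts would be 4.1 CPM. At a level below 4.1 CPM, as 5 of the 12 mice at 8°C had, fewer than 3 counts would be expected there. The other Cre- mice at 30°C had 5.68 to 10.2 CPM, at which more than 3 counts would be expected. The 0 was thus low beside its own group, but in a library of so few counts it does not show that Hilpda RNA was absent. Hilpda was lower in the cold, with log2 fold changes of -0.77 in Cre- mice (standard error 0.226, adjusted p = 0.0407) and -0.89 in BATdKO mice (standard error 0.223, adjusted p = 0.0178). The former lost its call without Cre- m6 at 30°C (adjusted p = 0.111), and without both mice m6 the values were -0.61 (adjusted p = 0.085) and -0.96 (adjusted p = 0.0065). Genotype gave 0.24 at 8°C (standard error 0.242, adjusted p = 0.861) and 0.37 at 30°C (standard error 0.208, adjusted p = 0.573).

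Genes that act with the members are given from 4 lists, chosen like the members with earlier results of these data known. Among lipases and the partners of the members (10 of 10 tested), 3 were higher with cold in Cre- mice, namely Mgll, the monoglyceride lipase (log2 fold change 0.71, adjusted p = 4.76e-07), Abhd5, the cofactor that perilipins hold (0.89, adjusted p = 0.00424), and the lysosomal lipase gene Lipa (0.33, adjusted p = 0.0114). In BATdKO mice the same 3 and Prkaca, the catalytic subunit of protein kinase A (0.46, adjusted p = 0.0476), were higher. Over all genes 5.57% were called higher with cold in Cre- and 3.76% in BATdKO mice. For genotype 0 of 10 passed at either temperature by edgeR, with 1 at an unadjusted p under 0.05 at 8°C (9.24% of all genes) and 3 at 30°C (10.4%). With both mice m6 left out, 1 was higher in BATdKO at 8°C (2.59% of all genes) and 4 at 30°C (4.0%). With cold 6 were then higher in Cre- (13.2% of all genes called in either direction) and 4 in BATdKO mice (6.13%). The list medians were 0.37 and 0.34 for cold in Cre- and BATdKO mice, beside -0.02 and -0.0026 for all genes, and 0.04 and 0.22 for genotype at 8°C and 30°C.

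Of other genes of droplet formation, coat and contact 39 of 41 were tested. With cold in Cre- mice 3 were higher and 1 lower, Clstn3, of which a brown fat isoform acts with CIDE proteins on droplets (log2 fold change 1.27, adjusted p = 0.00014), Vps13c, a lipid transfer protein (0.57, adjusted p = 0.00638), Acsl1 (0.41, adjusted p = 0.0667) and the retinal reductase Dhrs3 (-0.19, adjusted p = 0.0832). In BATdKO mice the caveolar gene Cavin1 was lower (-0.61, adjusted p = 0.0343) and the sterol gene Nsdhl higher (0.28, adjusted p = 0.0722). Of all genes 9.15% were called with cold in Cre- and 7.07% in BATdKO mice, so the counts of this list lay near the share over all genes. For genotype 0 of 39 passed at 8°C and at 30°C by edgeR, with 3 and 6 at an unadjusted p under 0.05 (9.24% and 10.4% of all genes). When both mice m6 were left out, 1 was higher in BATdKO at 8°C (2.59% of all genes called) and 3 at 30°C (4.0%). With cold 4 were then higher and 2 lower in Cre- mice (13.2%) and 0 higher and 1 lower in BATdKO mice (6.13%). The balance of these calls depended on the scaling, since library totals alone gave 2 higher and 6 lower with cold in Cre- mice (26.1% of all genes called) and 0 higher and 11 lower in BATdKO mice (22.5%). All list medians lay between 0.01 and 0.04 and were below 0 with library totals alone, as was the members' median for genotype at 8°C and that of the lipases and partners.

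Of PPAR targets other than the members 17 of 18 were tested. At 8°C 3 were higher in BATdKO, namely Angptl4, an inhibitor of lipoprotein lipase (log2 fold change 0.76, adjusted p = 0.0434), Lpl, lipoprotein lipase itself (1.01, adjusted p = 0.0434), and Fabp3, a fatty acid carrier (1.42, adjusted p = 0.0472). These were 3 of 17 where 0.697% of all genes were called higher, and Angptl4 and Fabp3 are also among the genes the study picked from these libraries. At 30°C 0 passed by edgeR (8 at an unadjusted p under 0.05, where 10.4% of all genes had one). Without both mice m6, 9 passed at 30°C (4.0% of all genes) and 4 at 8°C (2.59%). With cold 6 were higher and 2 lower in Cre- mice (9.15% of all genes called) and 5 higher and 2 lower in BATdKO mice (7.07%). Gk, glycerol kinase, was at 1.25 (adjusted p = 1.85e-07) and 1.26 (adjusted p = 2.47e-07). In Cre- mice the next smallest p were those of Gpd1, a glycerol phosphate dehydrogenase (1.55, adjusted p = 2.25e-05), Angptl4 (-1.28, adjusted p = 4.72e-05) and the uncoupling protein gene Ucp3 (1.79, adjusted p = 0.00375). In BATdKO mice they were those of Fabp3 (2.46, adjusted p = 0.000161), Adipoq, the adipocyte hormone adiponectin (-0.93, adjusted p = 0.00233), and Gpd1 (1.04, adjusted p = 0.00308). Cold without both mice m6 gave 10 higher and 2 lower in Cre- (13.2% of all genes called) and 5 higher and 3 lower in BATdKO mice (6.13%). The list median was 0.13 for genotype at 8°C, 0.40 at 30°C, and 0.51 and 0.22 for cold in Cre- and BATdKO mice.

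Of HIF targets other than Hilpda 14 of 16 were tested. With cold in Cre- mice, where Hilpda was lower, 8 were higher and 1 was lower (Adm, named after its value was seen), with Egln1 (log2 fold change 1.40, adjusted p = 0.000181) and Egln3 (0.93, adjusted p = 0.00479), both oxygen-sensing hydroxylases that mark HIF for degradation, among the higher. In BATdKO mice 5 were higher and 0 lower, among them Egln3 (1.29, adjusted p = 0.000144) and Pgk1, a glycolytic enzyme (0.59, adjusted p = 0.000244). The share of all genes called with cold was 9.15% in Cre- and 7.07% in BATdKO mice. For genotype at 8°C 1 passed, Pdk1 (-0.50, adjusted p = 0.0359), where 1.82% of all genes did. At 30°C 0 passed by edgeR, with 5 at an unadjusted p under 0.05 (10.4% of all genes). In the fit that left out both mice m6, 1 was lower at 8°C (2.59% of all genes called) and 1 higher at 30°C (4.0%) for genotype. With cold 9 were then higher and 1 lower in Cre- (13.2%) and 5 higher in BATdKO mice (6.13%). The list medians were 0.40 and 0.24 for cold and -0.03 and -0.02 for genotype at 8°C and 30°C.

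**Figure D5:**
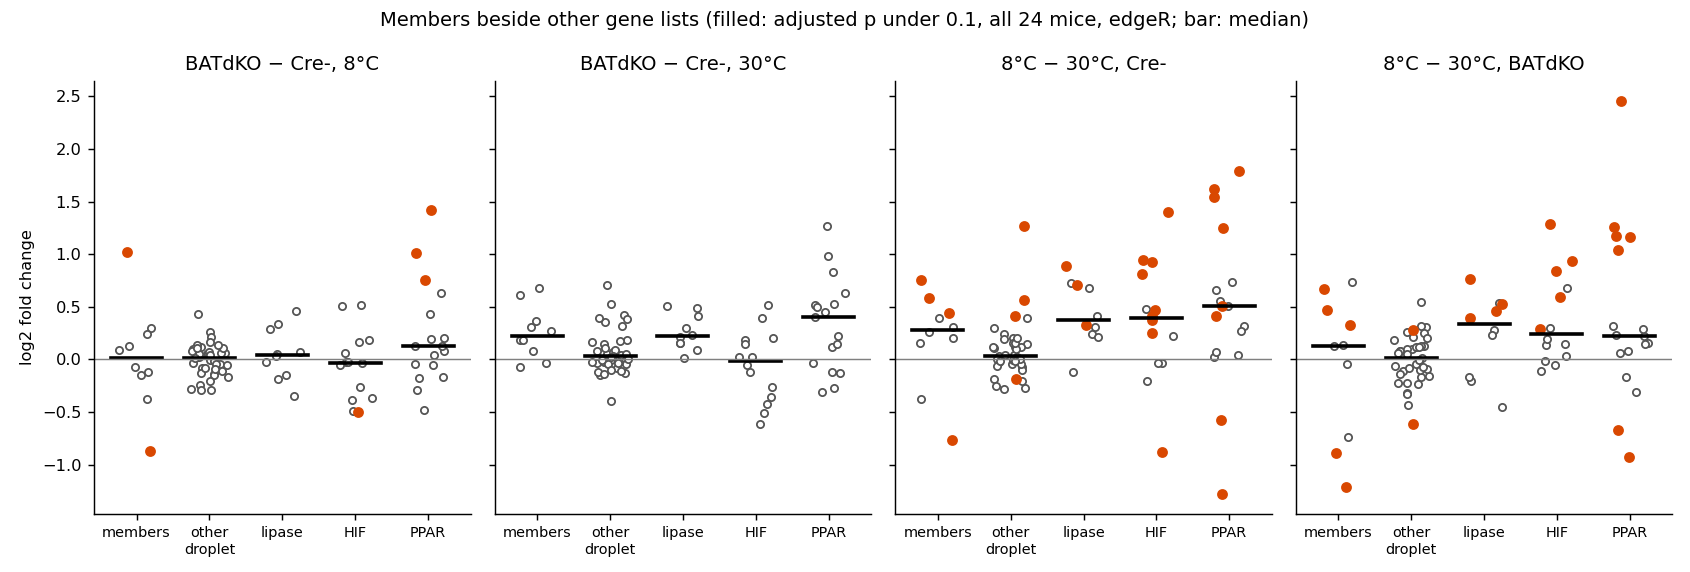
Log2 fold change (vertical axis) of each gene of 5 lists (horizontal axis, the members, other droplet genes, lipases and partners, HIF targets and PPAR targets) for the 4 comparisons in all 24 mice, with filled points for an adjusted p under 0.1 in edgeR's test and bars for list medians. In Cre- mice with cold the median of HIF targets is 0.40 and of PPAR targets 0.51, while other droplet genes stay at 0.03; at 30°C 0 genes of any list are filled.

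Over the 24 libraries, the 3 genes most like Cidec in log2 CPM among 6111 genes with a mean of at least 10 CPM were Lpl (Pearson r = 0.948), Arl4a (0.939) and Ndufaf2 (0.927). With the group means taken out they were Cox8b (0.935), Lpl (0.924) and Tbc1d20 (0.914). For Plin5 they were Pgam1 (0.93), Letm1 (0.925) and Mgll (0.911), for Bscl2 Ttc25 (0.92), Mgll (0.904) and AC160336.1 (0.889), and for Plin2 Slc25a17 (0.909), Pgam1 (0.907) and Rexo2 (0.896). Likeness to Plin4 was weaker, with Fundc2 (0.803), Ctdspl (0.783) and Gkap1 (0.724). The closest to Hilpda were 1110038F14Rik (0.868), Snw1 (0.863) and Ints6 (0.853), with Spearman rho of 0.513, 0.455 and 0.488. With group means taken out the closest were Dbi, Pgam1 and Capns1 to Plin2 (0.796 to 0.768), Atp6v1b2, Ndufab1 and Cd151 to Plin4 (0.788 to 0.784), Cluh, Pgam1 and 5031439G07Rik to Plin5 (0.75 to 0.697) and Bag3, Vti1a and Rabgap1l to Hilpda (0.912 to 0.897). For Hilpda the Spearman rho were again lower, at 0.471 (Bag3), 0.567 (Vti1a) and 0.583 (Rabgap1l). These values share libraries, depth and cell composition, and describe likeness of pattern only.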

How the data were processed

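RNA of BAT from 24 mice was made into 3′ tag libraries with the Lexogen QuantSeq forward kit. Only forward reads were used by the authors, who ran BBDuk for trimming, STAR for alignment (GRCm38) and Rsubread for gene counts, and who deposited these counts unnormalised. The strand setting and the annotation release are not given in the sources used here. Library totals ranged from 699703 to 11527643 counts, and the floor of 3 counts covers counting error only. Groups come from the genotype and temperature labels, and mice are called m1 to m6 within a group. The study removed outliers that its text does not name, and all 24 libraries were used here.

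Of the 12615 genes, 12608 were matched to a symbol. Counts went into edgeR 4.0.16 (R 4.3.3, limma 3.58.1), with TMM scaling, filterByExpr (12485 genes kept, 130 removed) and a quasi-likelihood fit of all 24 libraries that gave each of the 4 groups its own mean. Adjusted p-values are Benjamini-Hochberg values over all tested genes, with the threshold of the study (0.1). Standard errors are the absolute log2 fold change over the square root of F, and p-values measure the spread between the mice as labelled. Both tools, edgeR and DESeq2, were first tested on simulated data. Alternatives were RLE scaling, library totals, no filter, a mean normalised count of at least 10, robust estimates, the compared groups alone, DESeq2 1.42.0, and leaving out each mouse, and the fit without both mice m6 at 30°C was added after the data were seen. The members, gene lists and markers were chosen with earlier results of these data known. Named from each list are at most 4 genes per comparison with the smallest p among those past the threshold, and, for members past it, the 3 genes with the highest Pearson r of log2 CPM. Adm was named outside this rule, after its value was seen. Positions are from GENCODE M21, and promoters from RefSeq. The genes most like Bscl2 with group means taken out are not reported here.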

Additional observations from a re-analysis of the deposited data

Results flagged for a closer look

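Among the 10 members in the 4 groups of 6 mice, 3 of 40 sets of values held a mouse far from the rest on log2 CPM (with a prior count of 2), where chance gives about 1 in 20. Cidec was 41.76 CPM in BATdKO mouse m6 at 30°C, the lowest of its group, with a gap to the next mouse that was 0.685 of the range of the group on log2 CPM and 0.565 on CPM, where it would not have been singled out. This is the mouse whose Tbl1xr1 level (17.0 CPM) lay with the other label. Cidec was 215.2 CPM in BATdKO mouse m1 at 8°C, the highest of its group (0.631 of the range on log2 CPM and 0.69 on CPM), in the library with the largest brown adipocyte sum of all (5279 CPM). Hilpda was 0 CPM in Cre- mouse m4 at 30°C (0.844 on log2 CPM and 0.557 on CPM, where it would not have been singled out either), in the library with 699703 counts, where 3 counts would be 4.1 CPM. The part of these accompanying values in the results was not tested.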

How the results depend on the processing

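No paired analysis was possible because the mouse numbers in the labels are not shared between groups. For genotype at 8°C, 0 members passed with robust estimates and 4 with only the groups compared, and 0 to 2 passed when a mouse was left out; the count was 0 without Cre- m2 or BATdKO m1 at 8°C. Without both mice m6 at 30°C, 7 passed for cold in Cre- mice, 4 for genotype at 30°C and 1 for the interaction. Leaving out a mouse gave 0 to 3 members for genotype at 30°C and 0 to 1 for the interaction, in each case the highest without Cre- m6 at 30°C. Calls gained elsewhere included Plin4 for cold in Cre- mice with library totals (adjusted p = 0.0891) and Cidea for genotype at 8°C with only the groups compared (adjusted p = 0.0806).

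Values that changed sign did not pass the threshold. With library totals these were Plin3 for cold in Cre- mice (-0.01875), Plin1 and Fitm2 for cold in BATdKO mice (-0.05707 and -0.05931) and Plin2 for the interaction (-0.001098). Without both mice m6 they were Plin4 for genotype at 30°C (0.15), Plin1 for cold in BATdKO mice (-0.05339), and Cidec (-0.27), Plin2 (-0.04854) and Fitm2 (0.007395) for the interaction. Over the fits without a mouse, the ranges that crossed 0 were -0.17 to 0.13 (Plin4, genotype at 30°C), -0.05309 to 0.26 (Plin1) and -0.12 to 0.00033 (Plin3) for cold in BATdKO mice, and -0.13 to 0.46 (Cidec) and -0.0502 to 0.08125 (Plin2) for the interaction. The cause of these changes was not tested.

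Over all genes the count past the threshold moved by more than 1.5 times to 477 for genotype at 8°C with only the groups compared (227 with all groups). With library totals it moved to 3259 for cold in Cre- mice (433 higher, 2826 lower, against 695 and 448), to 2812 for cold in BATdKO mice (255 and 2557, against 470 and 413) and to 27 for the interaction (12 before). For genotype at 8°C library totals gave 67 higher and 229 lower, against 87 and 140. For genotype at 30°C it was 90 with DESeq2 and 500 without both mice m6 (0 before), and for the interaction 21 with robust estimates, 51 with DESeq2 and 44 without both mice m6. Without a mouse the counts ran from 138 to 276 for genotype at 8°C, 0 to 369 for genotype at 30°C, 574 to 1069 for cold in BATdKO mice and 7 to 37 for the interaction. Depth limits Hilpda, which rests on 0 to 126 counts per library.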
